A study of Mus musculus with 12 samples.

Results

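Metallothioneins and zinc transporters hold and move zinc and related metals in the liver, and 6 of their genes were followed here: Mt1, Mt2, Slc30a1, Slc30a10, Slc39a14 and Slc39a4. They were taken by symbol from the 41128 genes of the raw count table, and each symbol belonged to 1 gene ID. All 6 passed the filter on low counts in every fit, so no member is missing from any test. Polyadenylated RNA of 12 mouse libraries in 5 groups had been sequenced from a stranded mRNA kit, and the title of the study is about YAP and TAZ, which carry the growth signals of the Hippo pathway.

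The peritumoral group held 3 libraries of hepatocytes purified on a Percoll gradient from the liver around tumours. The tumours followed hydrodynamic injection of 3 plasmids, for SB11, a transposase (1 µg), for myc-NICD, the active part of Notch (20 µg), and for myr-ha-Akt (4 µg), and grew for 8 weeks. The untreated group held 3 libraries of hepatocytes from animals without that injection. Both hepatocyte groups share the genotype label Lats1tm1.1Jfm/RjoJ; Lats2tm1.1Jfm/RjoJ, are titled WT and are labelled 8 weeks of age, although injection was at that age. The sources used here do not say whether Cre was present. The TAA 24 h, TAA 48 h and control groups held 2 libraries each from CD-1 IGS mice labelled 8 weeks of age, of which the TAA animals had 1 intraperitoneal dose of thioacetamide, a toxin that injures hepatocytes around the central vein. The labels call these 6 libraries hepatocytes while the series design calls them livers, and they are called livers here.

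Metallothioneins are small cysteine-rich proteins that bind zinc and copper, buffer them in the cytosol and are made in large amounts by the liver under metal load, inflammation and glucocorticoids. Transporters of the SLC30 (ZnT) family move zinc out of the cytosol, into organelles or out of the cell, and those of the SLC39 (ZIP) family move it in. The metal-response factor Mtf1 senses cytosolic zinc and binds metal response elements in the promoters of Mt1, Mt2 and Slc30a1, so that stores and export follow zinc supply.

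Hepatocyte libraries held 16228747 to 18522324 counts and liver libraries 9640845 to 13692235, and 3 counts, the floor of detection for counting error only, came to between 0.162 and 0.311 RPM. The members had between 344 and 10090 counts in a library, far above that floor. Summed hepatocyte markers (Alb, Ttr and 6 others) stood at 76370 to 140747 RPM in peritumoral and 94414 to 96152 RPM in untreated hepatocytes, and at 128757 to 143892 RPM at 24 h, 124458 to 127541 RPM at 48 h and 177699 to 180409 RPM in controls. Peritumoral replicate 2 stood apart: it had 527 RPM of Xist and no count of Ddx3y, where the other 5 hepatocyte libraries had at most 0.183 RPM of Xist, and its summed biliary markers were the highest of all, at 10277 RPM. Its TMM factor was 1.30, and that of untreated replicate 3 was 0.785, so the peritumoral comparison of each of the 6 genes is also given without either. All 6 liver libraries had Xist and no Ddx3y. The labels do not tie each library to its own animal, so a p-value speaks only of the spread between libraries. Xist and Ddx3y set peritumoral replicate 2 apart from replicates 1 and 3, so the peritumoral libraries did not all come from the same animal. Elsewhere that spread may be technical. In such bulk samples, fewer cells of a type and less RNA per cell cannot be told apart.

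Promoters are shown for the 4 members with a window in the RefSeq table on GRCm38.p6. Whether these sequences bear on the RNA changes described below was not tested. Each sequence gives the 250 bases before the RefSeq start on the gene's strand, which is the plus strand for all 4. Capitals mark cores of the metal response element, TGCACNC or TGCGCNC, read on either strand. The windows lie at chr8:94178839-94179088 for Mt1, chr8:94172368-94172617 for Mt2, chr1:191906531-191906780 for Slc30a1 and chr1:185454598-185454847 for Slc30a10.
Mt1: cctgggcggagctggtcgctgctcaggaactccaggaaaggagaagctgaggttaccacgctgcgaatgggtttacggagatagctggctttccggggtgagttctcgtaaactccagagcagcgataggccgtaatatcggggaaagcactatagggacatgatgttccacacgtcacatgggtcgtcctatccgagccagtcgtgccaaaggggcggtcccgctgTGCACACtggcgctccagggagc
Mt2: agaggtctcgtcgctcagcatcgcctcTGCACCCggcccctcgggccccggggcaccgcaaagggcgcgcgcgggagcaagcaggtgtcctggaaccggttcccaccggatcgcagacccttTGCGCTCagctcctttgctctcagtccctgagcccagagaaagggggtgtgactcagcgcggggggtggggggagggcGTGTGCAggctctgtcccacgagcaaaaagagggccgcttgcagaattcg
Slc30a1: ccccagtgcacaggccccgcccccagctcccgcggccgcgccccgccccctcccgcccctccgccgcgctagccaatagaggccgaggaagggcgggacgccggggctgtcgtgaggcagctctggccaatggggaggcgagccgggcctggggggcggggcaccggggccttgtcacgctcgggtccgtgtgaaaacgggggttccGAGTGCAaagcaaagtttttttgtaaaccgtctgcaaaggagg
Slc30a10: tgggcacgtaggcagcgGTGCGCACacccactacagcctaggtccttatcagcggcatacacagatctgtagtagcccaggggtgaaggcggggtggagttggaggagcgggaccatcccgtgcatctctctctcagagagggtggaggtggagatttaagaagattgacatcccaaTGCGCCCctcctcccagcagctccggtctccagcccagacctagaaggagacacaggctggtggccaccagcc

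With the 50 bases after the start included, Mt2 held 4 cores, of which 3 lie before the start, and Mt1 held 3, of which 1 lies before it. Slc30a1 held 2, of which 1 lies before the start. Slc30a10 held 3, all before the start, but 2 of them overlap on opposite strands and are 1 run of capitals above. Among all 32851 windows of 300 bases in the table, 25.7% held at least 1 core, 7.11% at least 2, 1.97% at least 3 and 0.517% at least 4. The core of the antioxidant response element, TGACNNNGC on either strand, occurred once in Mt2 and once in Slc30a1, against at least 1 in 12.4% of the windows. Before and after depend on the start taken. The RefSeq start used was 94179089 for Mt1 and 94172618 for Mt2, while the GENCODE genes begin at 94179082 and 94172664. Elements near other starts, or more than 50 bases after the start used, were not searched. A core not found here may thus lie elsewhere in the gene. A match of letters is a description and not a bound site.

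Levels between genes can be compared only per length. In TPM, counts per length scaled to 1 total in every library, over all annotated exons, Mt2 was the highest of the 6 and Mt1 the second in every group, with group means of 248.5 to 1384 TPM for Mt2 and 142 to 672 TPM for Mt1. The order of the pair depends on the transcript model: the ratio of Mt2 to Mt1 was 1.18 to 2.50 over the 12 libraries in TPM, but 0.596 to 1.27 when counts were divided by the principal transcripts, 511 bases for Mt2 and 549 bases for Mt1, against 1246 bases of all exons for Mt1. Of the importers, Slc39a4 averaged 49.1 to 110 TPM and Slc39a14 averaged 56.1 to 104 TPM, and their order also changed with the transcript model. The exporters averaged 26.3 to 53.6 TPM for Slc30a10 and 20.5 to 34.8 TPM for Slc30a1. They were the lowest pair in 4 groups, and their spreads overlapped in peritumoral and untreated hepatocytes. In control livers Slc30a10, at 53.6 ± 1.19 TPM (SD, n = 2), lay between Slc39a14 and Slc39a4, but below both importers per kilobase of principal transcript. On either length, both metallothioneins had the highest group means in all 5 groups. The other metallothionein genes of the mouse, Mt3 and Mt4, had 20 and 7 counts over the 12 libraries and were not tested.

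**Figure D1:**
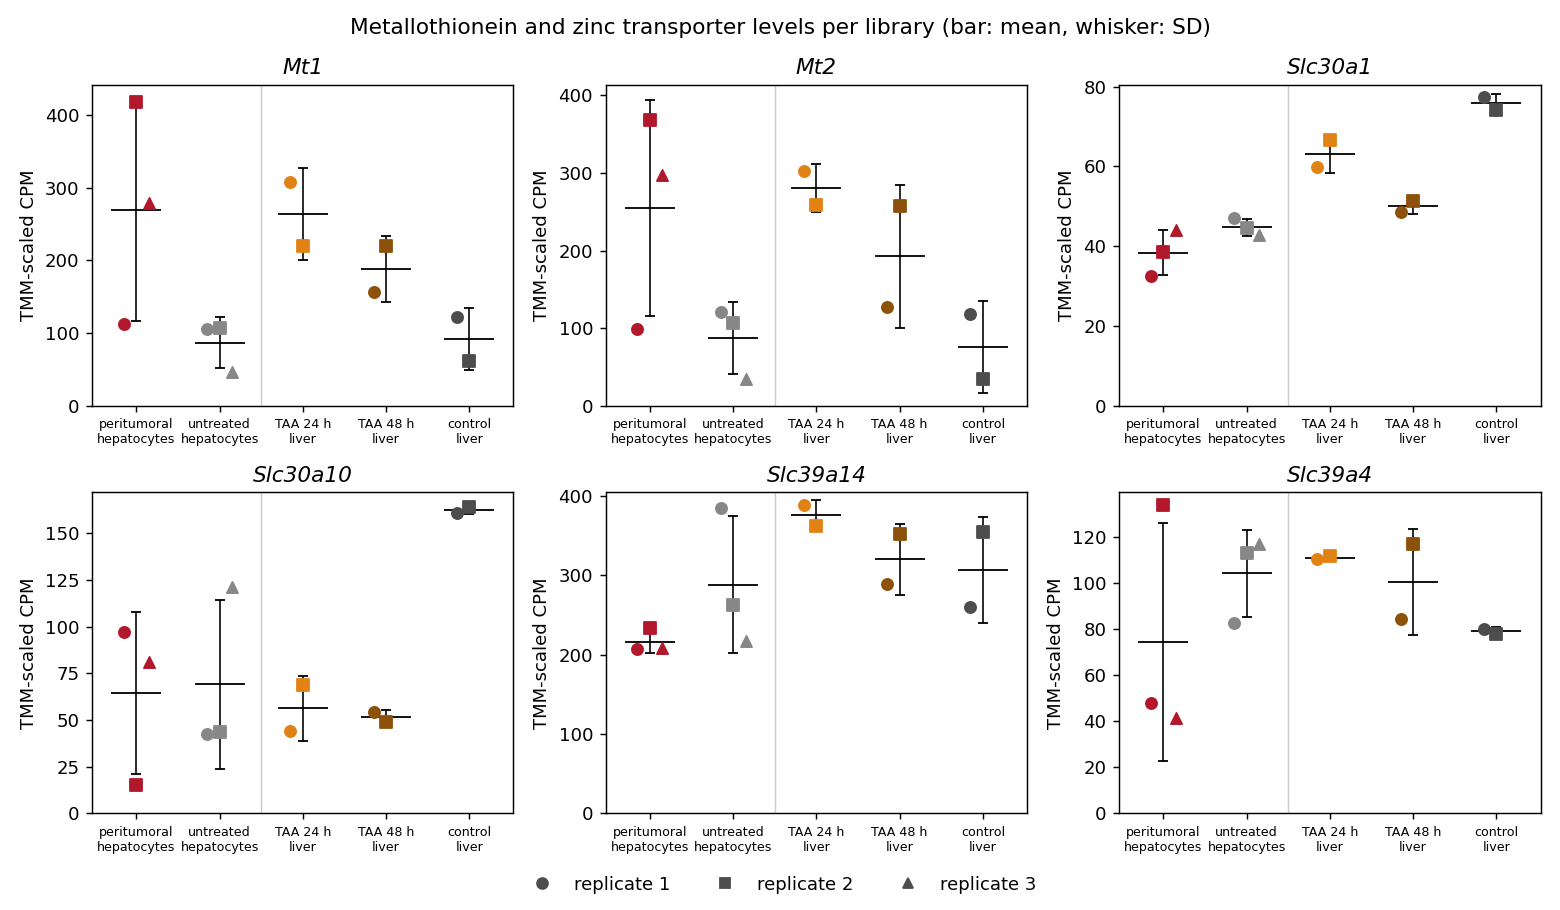
Points are libraries, with the level in TMM-scaled CPM on the vertical axis and the group on the horizontal axis; bars are means and whiskers SD. Mt1 and Mt2 stand above the control livers at both times after TAA and are high in 2 of 3 peritumoral libraries, while Slc30a10 is highest in the 2 control livers, at 161 and 164 CPM.

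Levels below are CPM (counts scaled to library size) adjusted by the trimmed mean of M-values (TMM), which sets the bulk of genes of each fit level. Factors were made separately for hepatocytes and for livers. Fold changes are log2 ± SE, and an adjusted p comes from the quasi-likelihood test of edgeR, adjusted by Benjamini-Hochberg over all genes tested. In livers the scaling matters: without TMM factors the median of all genes moved by 0.51 at 24 h and 0.71 at 48 h on the log2 scale, and by 0.24 in the peritumoral comparison. Members are therefore read relative to the bulk of genes. A member whose direction or call depends on this is named, in most cases with both values.

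After TAA, Mt1 RNA was higher at both times and Mt2 RNA at 24 h, Slc30a10 RNA was lower at both times relative to the bulk of genes, and neither importer passed the test. At 24 h, 3 of the 6 genes passed the test, where 41.8% of 13497 genes did (21.3% higher and 20.5% lower): Mt1 and Mt2 rose and Slc30a10 fell. At 48 h, 3 passed, where 48.9% of genes did (25.0% higher and 23.9% lower): Mt1 rose, and Slc30a10 and Slc30a1 fell. Both counts are near the share of all genes, so they say little about the members as a set. In peritumoral hepatocytes 0 of the 6 passed, where 29.2% of 13442 genes did (19.0% higher and 10.2% lower); Mt1 and Mt2 had an unadjusted p under 0.05, DESeq2 called these 2, and limma on log2 RPM called 0.

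Mt1 (ENSMUSG00000031765, chr8:94179082-94180327 on GRCm38, plus strand) encodes a main liver metallothionein. It had 308 and 219 CPM at 24 h and 156 and 220 CPM at 48 h after TAA, against 123 and 62.1 CPM in control livers. Both times lay above both controls. TAA and control libraries did not overlap for any of the 6 genes at 24 h or for 5 of the 6 at 48 h, all but Slc39a14, as for 74.1% of all genes at 24 h and 76.4% at 48 h. The change was 1.52 ± 0.35 at 24 h (adjusted p = 0.0146), or 2.86-fold, and 1.03 ± 0.34 at 48 h (adjusted p = 0.0454), or 2.04-fold. The 24 h call was lost without TAA 24 h replicate 1 (1.25, adjusted p = 0.0873). The 48 h call was lost in 5 of 6 fits with 1 library left out: without TAA 24 h replicate 1 (adjusted p = 0.0626) or 2 (0.0690), TAA 48 h replicate 1 (0.0604) or 2 (0.199), or control replicate 2, where the change was 0.57 (adjusted p = 0.165).

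Mt2 (ENSMUSG00000031762, chr8:94172664-94173568, plus strand) lies 5513 bases before Mt1 and encodes a second metallothionein of like role. It had 303 and 259 CPM at 24 h and 127 and 258 CPM at 48 h, against 118 and 34.5 CPM in control livers. The 2 control livers thus differed from each other by 3.42-fold, more than for any other member. On the log2 scale the change was 1.88 ± 0.57 at 24 h (adjusted p = 0.0382), or 3.69-fold, and 1.34 ± 0.57 at 48 h (adjusted p = 0.0918), which did not pass. The 48 h result depends on scaling: without TMM factors 5 members were called at 48 h, all but Slc30a1, so Mt2 was among them. The 24 h call was lost without TAA 24 h replicate 1 (adjusted p = 0.141) or 2 (0.0939), or control replicate 2 (0.0736), and Mt2 was called at 48 h without control replicate 1 (2.44, adjusted p = 0.00984). Of Mt2's exon bases, 73.5% also lie in exons of Gm45774 on the other strand, and the sources used here do not give the strand setting of the counting, so reads of the pair may not be told apart.

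In peritumoral hepatocytes both metallothioneins were high in 2 of 3 libraries. Mt1 had 112, 418 and 278 CPM in peritumoral hepatocytes, against 106, 108 and 46.4 CPM in untreated hepatocytes. Mt2 had 99.4, 368 and 298 CPM in peritumoral hepatocytes, against 121, 107 and 34.9 CPM in untreated ones. Peritumoral replicate 1 lay at the level of untreated replicates 1 and 2 for both genes, so the Mt1 groups touch without overlap, as did those of 49.5% of all genes, and the Mt2 groups overlap. The fitted change was 1.64 ± 0.53 for Mt1 (adjusted p = 0.0578) and 1.54 ± 0.60 for Mt2 (adjusted p = 0.0982), and neither passed. DESeq2 gave an adjusted p of 0.00886 for Mt1 and 0.0310 for Mt2 with like fold changes. Without peritumoral replicate 1, Mt1 (1.996, adjusted p = 0.0213) and Mt2 (1.92, adjusted p = 0.0419) were both called by edgeR. Without the library that stood apart, peritumoral replicate 2, the values were 1.20 for Mt1 (adjusted p = 0.140) and 1.21 for Mt2 (adjusted p = 0.223), and without untreated replicate 3 they were 1.32 (adjusted p = 0.129) and 1.15 (adjusted p = 0.177).

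The pair moved together over all libraries. Mt2 had 0.555 to 1.18 times the counts of Mt1, with a median of 0.972, while Mt1 plus Mt2 ranged from 63.8 to 1025 RPM. After centring hepatocytes and livers each on their own mean, Pearson's r of log2 CPM between the pair was 0.97 over the 12 libraries, 0.99 within hepatocytes and 0.98 within livers. These libraries share their scaling and group differences, so the value is descriptive. Mt2 was the gene most like Mt1 among 7771 genes compared, and Mt1 the gene most like Mt2.

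**Figure D2:**
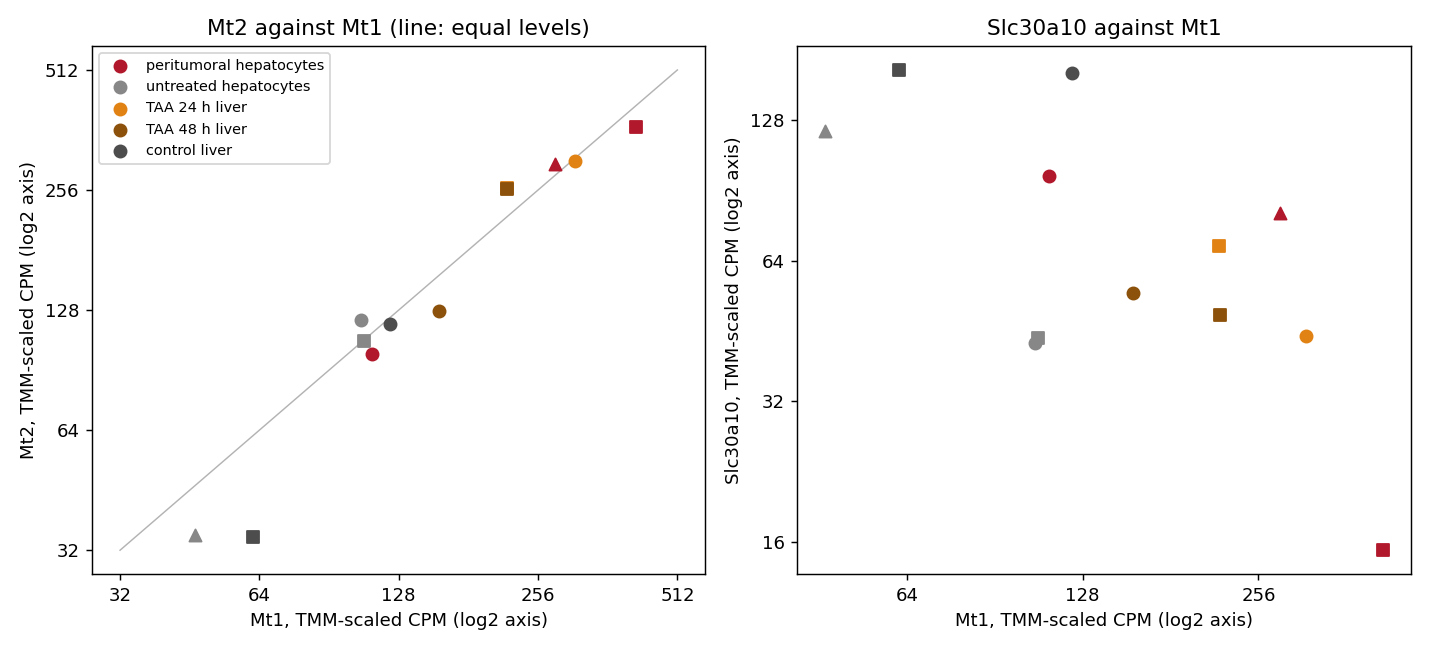
Each point is a library, in TMM-scaled CPM on log2 axes, with Mt2 (left) and Slc30a10 (right) against Mt1; circles, squares and triangles are replicates 1, 2 and 3. Mt2 follows the line of equal levels, with TAA 24 h replicate 2 hidden under TAA 48 h replicate 2. Slc30a10 is lowest, at 15.4 CPM, in peritumoral replicate 2, the library that stood apart, which has the highest Mt1, 418 CPM.

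Among the exporters, Slc30a10 (ENSMUSG00000026614, chr1:185454848-185468762, plus strand) carries manganese out of hepatocytes into bile, despite the zinc transporter name of its family. It had 44.0 and 68.7 CPM at 24 h and 54.5 and 49.1 CPM at 48 h after TAA, against 161 and 164 CPM in control livers. All 4 TAA libraries lay below the 2 controls, which differed by only 1.02-fold. Its log2 fold change was -1.53 ± 0.21 at 24 h (adjusted p = 0.00234) and -1.65 ± 0.21 at 48 h (adjusted p = 0.00121), so that RNA stood at 0.347 and 0.319 times the control level. Each call held with any 1 liver library left out and without TMM factors, where the fall was smaller (-1.02 at 24 h and -0.94 at 48 h). In 1 fit of all 12 libraries, which takes in the wider spread of the hepatocytes, neither passed (adjusted p = 0.180 at 24 h and 0.126 at 48 h). Of its exon bases, 9.13% also lie in Gm2061 on the other strand.

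In hepatocytes Slc30a10 varied more within groups than between them. Peritumoral libraries had 97.4, 15.4 and 81.0 CPM, and untreated ones 42.6, 43.6 and 121 CPM. Peritumoral replicate 2 was lowest and untreated replicate 3 highest of the 6, and the groups overlap. The change was -0.10 ± 0.70 (adjusted p = 0.929), and its sign turned with upper-quartile factors (0.025) and without factors (0.12). Leaving out untreated replicate 3 gave 0.57 (adjusted p = 0.593), and leaving out peritumoral replicate 2 gave 0.43 (adjusted p = 0.523).

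Slc30a1 (ENSMUSG00000037434, chr1:191906767-191913247, plus strand) is the zinc exporter of the plasma membrane and a target of Mtf1. It had 59.8 and 66.5 CPM at 24 h and 48.6 and 51.5 CPM at 48 h after TAA, against 77.5 and 74.2 CPM in control livers. The groups were ordered without overlap, with 48 h lowest and controls highest. On the log2 scale the change was -0.26 ± 0.12 at 24 h (adjusted p = 0.108) and -0.60 ± 0.12 at 48 h (adjusted p = 0.00589), so Slc30a1 fell at 48 h relative to the bulk of genes, and the 48 h call held with any 1 liver library left out. Without TMM factors the sign turned at both times, to 0.25 at 24 h (adjusted p = 0.110) and 0.11 at 48 h (adjusted p = 0.435). In RPM it had 65.1 and 70.7 at 24 h and 61.2 and 62.2 at 48 h, against 58.7 and 55.7 in controls. In hepatocytes its levels lay close together, at 32.7, 38.5 and 44.1 CPM in peritumoral and 47.0, 44.5 and 42.9 CPM in untreated ones. That difference was -0.22 ± 0.16 (adjusted p = 0.331), and 0.011 without factors. Leaving out peritumoral replicate 2 gave -0.18 (adjusted p = 0.514), and leaving out untreated replicate 3 gave -0.26 (adjusted p = 0.293). Of its exon bases, 8.92% also lie in 1700034H15Rik on the other strand.

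Slc30a1 and the metallothioneins are known targets of the same factor, and their RNA can be set against each other within a library. The ratio of Mt1 to Slc30a1 counts, which no scaling of libraries changes, was 5.15 and 3.30 at 24 h and 3.22 and 4.27 at 48 h, against 1.58 and 0.837 in control livers. In hepatocytes it was 3.44, 10.8 and 6.32 in peritumoral libraries, against 2.25, 2.42 and 1.08 in untreated ones. All 4 TAA libraries lay above both controls, and all 3 peritumoral libraries above the 3 untreated ones. The CPM of Mt1 alone parted the same groups. So did that of 74.1% of all genes at 24 h, 76.4% at 48 h and 49.5% in the peritumoral comparison. How often the ratio of other gene pairs does so was not tested.

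**Figure D3:**
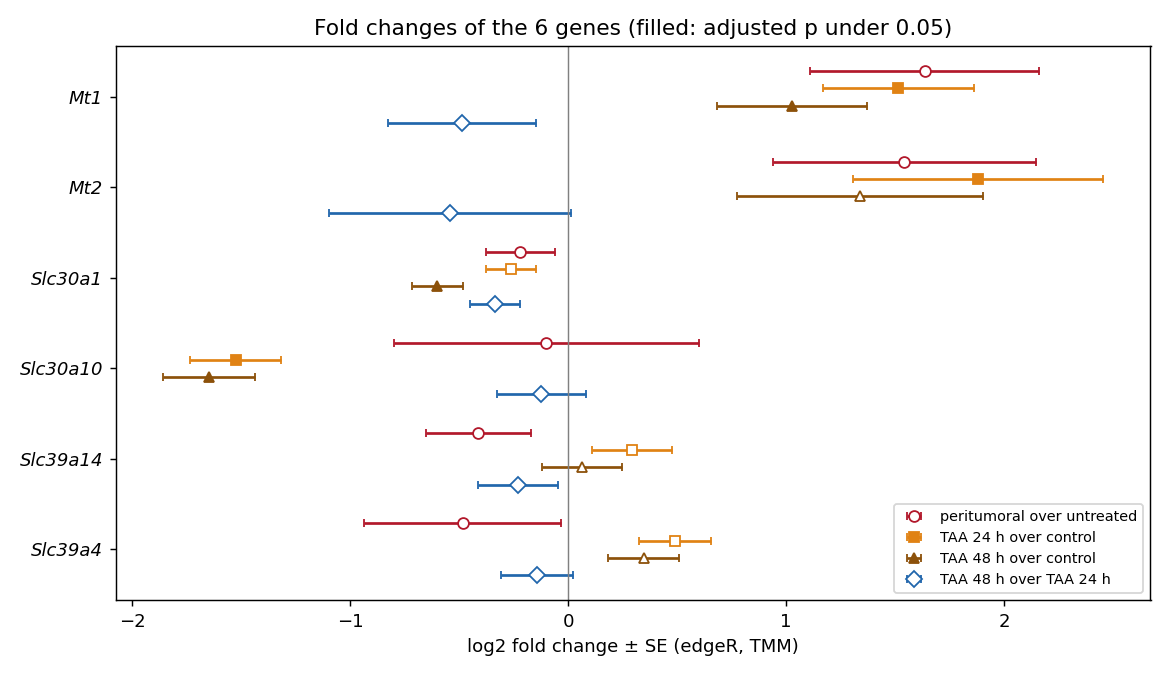
Log2 fold changes ± SE (horizontal axis) of the 6 genes (vertical axis) in the 4 comparisons, from edgeR with TMM factors; filled points have an adjusted p under 0.05. The filled points are Mt1 at 24 h and 48 h, Mt2 at 24 h, Slc30a10 at both times and Slc30a1 at 48 h, whose sign, -0.60 here, turns to 0.11 without factors.

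Among the importers, Slc39a14 (ENSMUSG00000022094, chr14:70303469-70351425, minus strand) takes zinc, manganese and iron not bound to transferrin into hepatocytes and is known as an acute phase gene. It had 389 and 362 CPM at 24 h and 289 and 352 CPM at 48 h after TAA, against 259 and 354 CPM in control livers. The 24 h libraries lay above both controls and the 48 h libraries between them. The fitted change was 0.29 ± 0.18 at 24 h (adjusted p = 0.240) and 0.06 ± 0.18 at 48 h (adjusted p = 0.804). Without TMM factors both were called, at 0.81 (adjusted p = 0.00904) and 0.77 (adjusted p = 0.00857), and in RPM the TAA libraries had 423 and 385 at 24 h and 364 and 425 at 48 h, against 197 and 266 in controls.

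In hepatocytes Slc39a14 had 207, 233 and 209 CPM in peritumoral libraries, against 385, 262 and 217 CPM in untreated ones. The peritumoral libraries lay close together around the lowest untreated one, and the groups overlap. Its log2 fold change was -0.41 ± 0.24 (adjusted p = 0.239). Without untreated replicate 3 it was -0.59 (adjusted p = 0.0931), and without peritumoral replicate 2 -0.44 (adjusted p = 0.313).

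Slc39a4 (ENSMUSG00000063354, chr15:76612383-76617384, minus strand) is the zinc importer best known from the intestine, where its loss in humans causes acrodermatitis enteropathica. It had 110 and 112 CPM at 24 h and 84.4 and 117 CPM at 48 h after TAA, against 80.4 and 78.1 CPM in control livers. All 4 TAA libraries lay above both controls, replicate 1 at 48 h only just. The change was 0.49 ± 0.16 at 24 h (adjusted p = 0.0519) and 0.35 ± 0.16 at 48 h (adjusted p = 0.1253). The 24 h value lay at the threshold. Among the settings that called it were DESeq2 (0.50, adjusted p = 0.0377), upper-quartile factors (0.64, adjusted p = 0.0244), no factors (1.00, adjusted p = 0.00248) and limma on log2 RPM. It was also called without TAA 48 h replicate 1 (0.49, adjusted p = 0.0285) or 2 (0.49, adjusted p = 0.0286). In 1 fit of all 12 libraries it was not called at 24 h, nor was any other member. At 48 h it was called without TAA 48 h replicate 1 (0.56, adjusted p = 0.0331), with upper-quartile factors (0.51, adjusted p = 0.0458), without factors (1.05, adjusted p = 0.00141) and with limma on log2 RPM.

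In hepatocytes the call on Slc39a4 turned on 1 library. Peritumoral libraries had 48.2, 134 and 41.5 CPM, and untreated ones 82.8, 113 and 117 CPM. Replicate 2, the library that stood apart, was the highest of the 6, while the other 2 peritumoral libraries were the lowest. On the log2 scale the change was -0.48 ± 0.45 with all libraries (adjusted p = 0.458) and -1.17 ± 0.19 without peritumoral replicate 2 (adjusted p = 0.00878). Without untreated replicate 3 it was -0.41 (adjusted p = 0.605).

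**Figure D4:**
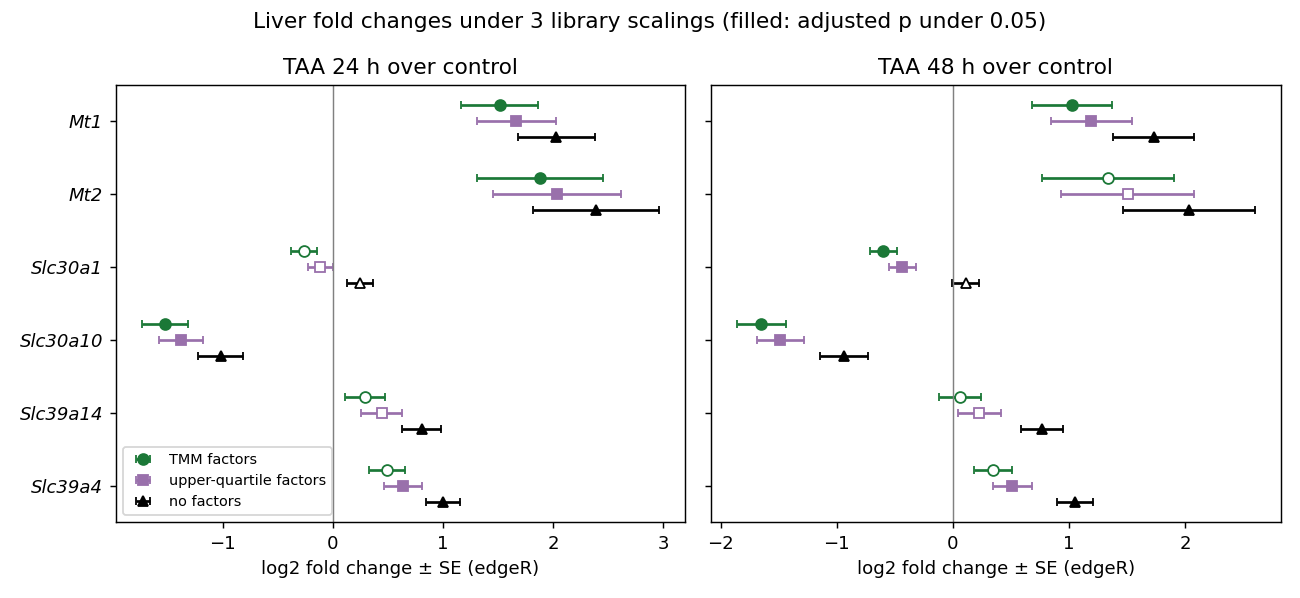
Log2 fold changes ± SE (horizontal axis) of the 6 genes in TAA livers over control at 24 h (left) and 48 h (right) with TMM factors, upper-quartile factors and no factors; filled points have an adjusted p under 0.05. Mt1 and Slc30a10 are filled under all 3 scalings, Slc30a1 changes sign without factors (-0.60 with TMM and 0.11 without at 48 h), Slc39a14 is filled only without factors (0.77 at 48 h), and Slc39a4 with upper-quartile factors (0.51) and without factors (1.05). Mt2 at 48 h is open with TMM factors and filled without factors.

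Between the 2 times after TAA, 0 of the 6 genes passed the test, where 7.33% of 13497 genes did (4.96% higher and 2.36% lower); 1 had an unadjusted p under 0.05, and DESeq2 and limma called 0. In TMM-scaled CPM the groups did not overlap for 3 of the 6, Mt2, Slc30a1 and Slc39a14, as for 61.9% of all genes. In RPM Mt2 and Slc39a14 overlapped, and only Slc30a1 did not. The gene with the low p was Slc30a1, with a log2 fold change of -0.34 ± 0.12 for 48 h over 24 h (adjusted p = 0.122). The metallothioneins averaged lower at 48 h, at -0.49 ± 0.34 for Mt1 (adjusted p = 0.408) and -0.54 ± 0.56 for Mt2 (adjusted p = 0.581). For Mt2, replicate 2 had 258 CPM at 48 h and 259 CPM at 24 h, and replicate 1 had 127 CPM at 48 h and 303 CPM at 24 h, although the numbers pair no animals.

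Tumour-bearing and toxic injury were also set against each other, as the peritumoral effect minus the TAA effect in 1 fit of all 12 libraries. In that test 0 of the 6 genes passed against 24 h, where 21.1% of 14615 genes did (9.03% higher and 12.1% lower), and 0 passed against 48 h, where 15.3% did (6.71% higher and 8.57% lower); 1 and 0 genes had an unadjusted p under 0.05, and DESeq2 and limma called 0. For Mt1 the difference from the 24 h effect was -0.01 ± 0.75 and from the 48 h effect 0.51 ± 0.75, and SEs of this size do not show that the effects are alike. The gene with the unadjusted p under 0.05 was Slc39a14, with a difference of -0.83 ± 0.36 from the 24 h effect (adjusted p = 0.1246). For Slc30a10 it was 1.36 ± 0.92 (adjusted p = 0.307) and 1.52 ± 0.92 (adjusted p = 0.274). Without peritumoral replicate 2, Slc30a10 was called against both times (1.78, adjusted p = 0.0434, and 1.94, adjusted p = 0.0377), as was Slc39a4 (-1.85, adjusted p = 0.00376, and -1.66, adjusted p = 0.00570). Without untreated replicate 3, Slc39a14 was called against 24 h (-1.02, adjusted p = 0.0333). The hepatocyte and liver sets also differ in stock. All hepatocyte libraries but peritumoral replicate 2 had Ddx3y, and no liver library had it. The preparation may differ as well. A difference between tumour and toxin cannot be told apart from these in this contrast.

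Markers of other cell types moved with the groups. Summed macrophage markers (11 genes) stood at 1901 to 5217 RPM in peritumoral and 272 to 479 RPM in untreated hepatocytes, and 10 of 11 rose, where 19.0% of all genes did. They stood at 476 to 631 RPM at 24 h and 1136 to 1817 RPM at 48 h, against 77.1 to 176 RPM in controls, with 7 and 11 of 11 higher, where 21.3% and 25.0% of all genes were. Stellate cell and fibroblast markers (9 genes) stood at 706 to 2458 RPM in peritumoral and 47.6 to 117 RPM in untreated hepatocytes, and at 451 to 497 RPM at 24 h and 1527 to 2167 RPM at 48 h, against 81.5 to 131 RPM in controls. Endothelial markers (8 genes) stood at 798 to 1326 RPM in peritumoral and 144 to 244 RPM in untreated hepatocytes, and at 284 to 403 RPM at 24 h and 347 to 464 RPM at 48 h, against 117 to 143 RPM in controls. Biliary markers (8 genes) stood at 775 to 10277 RPM in peritumoral and 50.6 to 73.6 RPM in untreated hepatocytes, and at 147 to 164 RPM at 24 h and 208 to 309 RPM at 48 h, against 59.1 to 64.2 RPM in controls. In the peritumoral comparison, at 24 h and at 48 h, 19.0%, 21.3% and 25.0% of all genes rose. In that order, 7, 8 and 9 of 9 stellate cell and 8, 5 and 6 of 8 endothelial markers rose. Of the biliary markers tested, 5 of 7, 4 of 6 and 2 of 6 rose, and 1 fell at 48 h, where 23.9% of all genes did. No macrophage, stellate cell or endothelial marker was at 0 in all libraries of a group. All 8 neutrophil markers were at 0 in control livers and summed to at most 6.31 RPM at either time after TAA and to 18.2 to 39.4 RPM in peritumoral hepatocytes, against 0.986 to 3.32 RPM in untreated ones. Lymphocyte markers summed to at most 6.38 RPM in any library, and red cell markers to at most 82.1 RPM in peritumoral and 80.1 to 144 RPM in untreated hepatocytes. Hepatocyte markers had medians of -0.70 in the peritumoral comparison and -0.68 at 24 h and -0.79 at 48 h on the log2 scale, with 0, 1 and 2 of 8 lower, where 10.2%, 20.5% and 23.9% of all genes were. The part of any of these in the members' values was not tested.

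The rest of both transporter families was measured as well. The shares of all genes that rose and fell were 19.0% and 10.2% in the peritumoral comparison, 21.3% and 20.5% at 24 h, and 25.0% and 23.9% at 48 h, and each count of a list below stands against these. Of the 10 ZnT genes, 8 could be tested in these 3 comparisons. In the peritumoral comparison 0 rose and 3 fell, with a median of -0.57, against -0.02 for all genes; at 24 h 0 rose and 1, Slc30a10, fell; at 48 h 1 rose and 2 fell. Of the 14 ZIP genes, 12 or 13 could be tested. In the peritumoral comparison 0 rose and 2 fell, with a median of -0.27; at 24 h 3 rose and 4 fell, and at 48 h 3 rose and 3 fell, with medians of 0.26 and 0.06. Slc30a2, Slc30a8 and Slc39a12 were filtered out of all 3.

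The 3 ZnT genes that fell in peritumoral hepatocytes carry zinc into compartments of the secretory and endosomal pathway. Slc30a4 had 18.1, 23.1 and 16.6 CPM in peritumoral libraries, against 31.8, 30.5 and 26.2 CPM in untreated ones, a change of -0.61 ± 0.19 (adjusted p = 0.0483). Slc30a6 changed by -0.83 ± 0.22 (adjusted p = 0.0312) and Slc30a7 by -0.60 ± 0.17 (adjusted p = 0.0397). In these 3 genes no peritumoral library overlapped an untreated one, as in 49.5% of all genes. The ZIP genes that fell were Slc39a9 (-0.55 ± 0.13, adjusted p = 0.0210), a transporter of the Golgi, and Slc39a11 (-0.67 ± 0.16, adjusted p = 0.0243). These 5 calls rested on single libraries: each was lost without untreated replicate 1, untreated replicate 2 or peritumoral replicate 3, with an adjusted p of up to 0.194 for Slc30a4, 0.170 for Slc30a6, 0.188 for Slc30a7, 0.136 for Slc39a9 and 0.116 for Slc39a11, and each was lost without TMM factors. Slc30a4, Slc30a6 and Slc30a7 were also lost without peritumoral replicate 1, and Slc30a6, Slc30a7 and Slc39a11 without peritumoral replicate 2. Of the exon bases of Slc30a7, 16.0% also lie in genes on the other strand. The abundant Slc30a9 (-0.55 ± 0.18, adjusted p = 0.0632), Slc30a5 (-0.35 ± 0.18, adjusted p = 0.189) and Slc39a1 (-0.37 ± 0.21, adjusted p = 0.234) did not pass.

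In TAA livers, 2 ZIP genes of low level rose strongly. Slc39a10, a plasma membrane importer whose transcription Mtf1 represses under zinc, had 15.5 and 10.2 CPM at 24 h and 10.5 and 12.6 CPM at 48 h, against 3.19 and 3.41 CPM in control livers. Its log2 fold change was 1.96 ± 0.26 at 24 h (adjusted p = 0.00214) and 1.80 ± 0.26 at 48 h (adjusted p = 0.00200). Slc39a6, its close relative, had 13.2 and 9.21 CPM at 24 h and 12.9 and 10.6 CPM at 48 h, against 2.47 and 3.81 CPM in controls, changes of 1.83 ± 0.30 (adjusted p = 0.00416) and 1.90 ± 0.30 (adjusted p = 0.00265). Both calls held at both times with any 1 library left out. Slc39a13, a transporter of the secretory pathway, rose by 0.88 ± 0.16 at 24 h (adjusted p = 0.00589). The ZIP genes that fell at 24 h, named here after their values were seen, were Slc39a2 (-2.47 ± 0.49, adjusted p = 0.00913), Slc39a3 (-0.80 ± 0.17, adjusted p = 0.0109), Slc39a5 (-3.35 ± 0.78, adjusted p = 0.0155) and Slc39a8. Slc39a2 was near the floor of detection, at 0.399 to 0.584 RPM at 24 h, against 1.88 to 2.03 RPM in control livers.

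Slc39a8, which like Slc39a14 carries manganese and zinc, fell by 0.54 at 24 h (SE 0.12, adjusted p = 0.0119) and by 0.71 at 48 h (SE 0.12, adjusted p = 0.00330), but without TMM factors it was level, at -0.029 and 0.00017. Its 24 h call was lost without TAA 24 h replicate 1 or 2 (adjusted p of up to 0.0665). Slc39a5, an importer known from intestine and pancreas, had 1 and 9 counts at 24 h and 37 and 68 counts at 48 h, against 52 and 20 counts in control livers. Its change for 48 h over 24 h was 3.40 ± 0.77 (adjusted p = 0.0487), and that call was lost without either library of either time (adjusted p of up to 0.197). At 48 h Slc30a4 had a change of 0.41 ± 0.14 (adjusted p = 0.0466) and Slc39a9 of -0.32 ± 0.11 (adjusted p = 0.0451), both close to the threshold; the first was lost with any 1 library left out (adjusted p of up to 0.193) and the second with any but TAA 24 h replicate 2 (up to 0.216). Without TMM factors the sign of Slc39a9 turned, to 0.39.

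**Figure D5:**
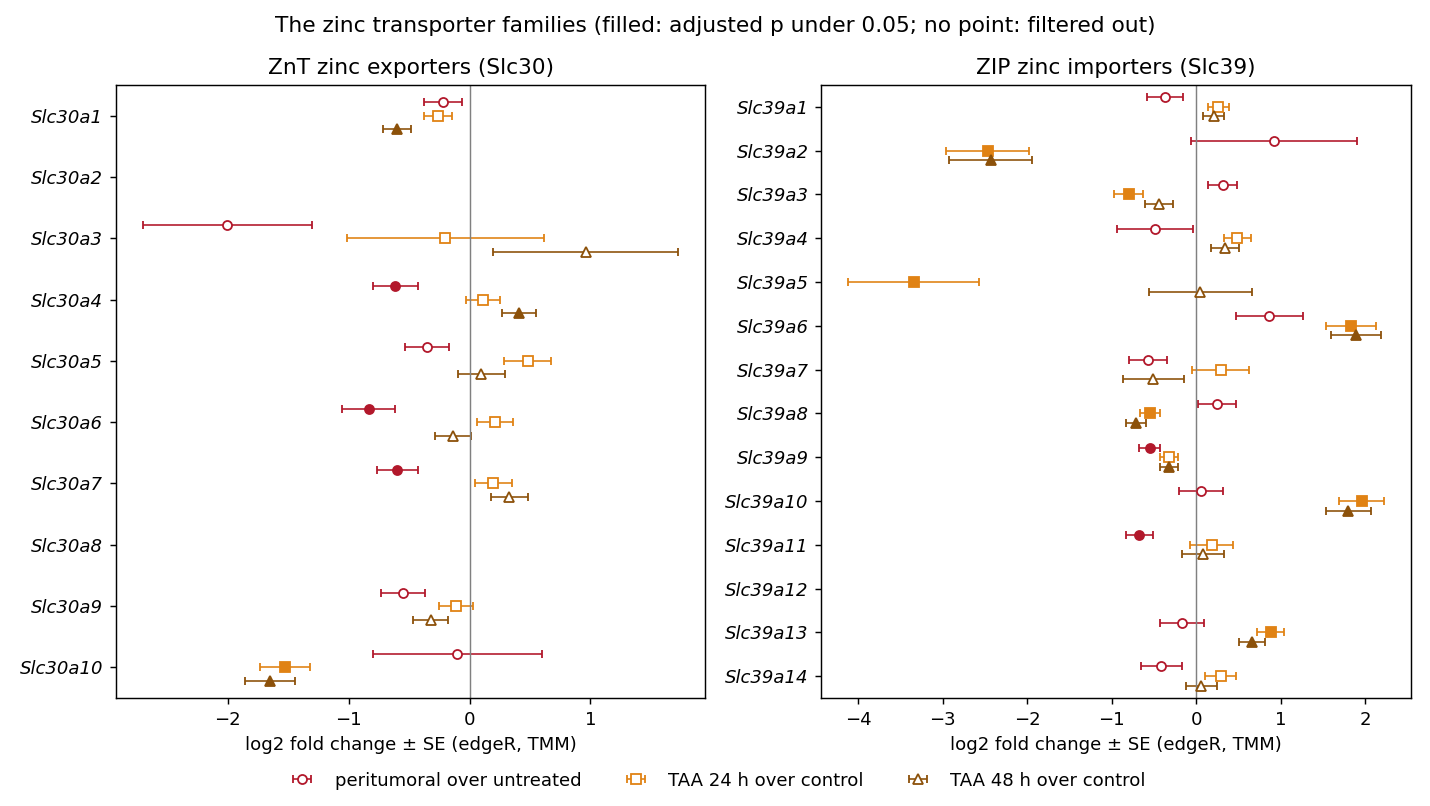
Log2 fold changes ± SE (horizontal axis) of the ZnT (left) and ZIP (right) genes in the 3 comparisons with a control or untreated group, with TMM factors; filled points have an adjusted p under 0.05. Slc39a6 and Slc39a10 stand at 1.80 to 1.96 in TAA livers, the farthest to the right, Slc30a10 at -1.53 and -1.65, and Slc30a1 at -0.60 at 48 h is the one member whose called sign turns without factors.

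Of Mtf1 and 8 of its known targets in the mouse, all 9 were tested; 1 rose and 1 fell in the peritumoral comparison, 4 rose and 2 fell at 24 h, and 3 rose and 1 fell at 48 h, with medians of 0.21, 0.005 and 0.48, against -0.02, 0.02 and -0.03 for all genes. The list includes the members Mt1, Mt2 and Slc30a1, so its counts are not separate from theirs. Slc39a10, which Mtf1 represses under zinc, is counted among the genes that rose at 24 h and 48 h. The counts and medians thus mix induced and repressed targets. Mtf1 itself had changes of -0.45 ± 0.15 in the peritumoral comparison (adjusted p = 0.0605), 0.005 ± 0.15 at 24 h (adjusted p = 0.982) and -0.13 ± 0.15 at 48 h (adjusted p = 0.511). Csrp1, which encodes a LIM domain protein, rose by 2.09 ± 0.43 in peritumoral hepatocytes (adjusted p = 0.0152), by 2.27 ± 0.26 at 24 h (adjusted p = 0.00127) and by 2.80 ± 0.26 at 48 h (adjusted p = 0.000474). Gclc, the catalytic subunit of glutamate-cysteine ligase, fell in peritumoral hepatocytes (-1.42 ± 0.31, adjusted p = 0.0173) and at 24 h (-0.75 ± 0.18, adjusted p = 0.0188). The peritumoral call on Csrp1 was lost without untreated replicate 1 (adjusted p = 0.0576), that on Gclc without untreated replicate 1 or 2 or peritumoral replicate 3 (up to 0.0708), and the 24 h call on Gclc without TAA 24 h replicate 1 or control replicate 1 (up to 0.0750), and without TMM factors it did not pass.

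Slc30a10, Slc39a14 and Slc39a8 also belong to the genes of manganese handling. Of 8 such genes, 1 rose and 1 fell in the peritumoral comparison, and 1 rose and 4 fell at 24 h and again at 48 h, with medians of -0.16, -0.40 and -0.62. Of all genes 20.5% fell at 24 h and 23.9% at 48 h. Sod2, the manganese superoxide dismutase of mitochondria, fell by 0.91 at 24 h (SE 0.12, adjusted p = 0.00210) and by 1.29 at 48 h (SE 0.12, adjusted p = 0.000478). Tmem165, a Golgi protein needed for manganese supply there, rose by 1.07 ± 0.16 at 24 h (adjusted p = 0.00302) and 1.36 ± 0.16 at 48 h (adjusted p = 0.000926). In peritumoral hepatocytes Slc40a1, the iron exporter ferroportin, which is also high in macrophages, rose by 1.81 ± 0.33 (adjusted p = 0.0108; up to 0.0521 without untreated replicate 1 or 2), and Slc11a2, the importer DMT1, fell by 0.69 (SE 0.19, adjusted p = 0.0366), a call lost with any 1 library left out.

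Routes known to induce metallothioneins other than metals were read from lists. Of 14 genes of the interleukin 6 and STAT3 response, 6 rose and 2 fell at 24 h, 3 rose and 2 fell at 48 h and 1 rose in the peritumoral comparison, where 21.3%, 25.0% and 19.0% of all genes rose; 3, all of the serum amyloid genes, were lower at 48 h than at 24 h, as were 2.36% of all genes, with changes of -2.86 for Saa1, -3.20 for Saa2 and -2.85 for Saa3. Those calls were lost without either 24 h replicate or 48 h replicate 1, and for Saa1 and Saa2 also without 48 h replicate 2 (adjusted p of up to 0.200 for Saa1, 0.169 for Saa2 and 0.0913 for Saa3). Saa1 and Saa2 are near-identical, so the split of reads between them is uncertain. Saa3, a more distant serum amyloid gene, had 467 and 431 CPM at 24 h and 54.1 and 70.0 CPM at 48 h, against 5.46 and 3.10 CPM in control livers. Lcn2, which encodes lipocalin 2, had 1559 and 2440 CPM at 24 h and 1088 and 992 CPM at 48 h, against 33.5 and 13.2 CPM in controls. Socs3, the feedback inhibitor of STAT3 signalling, rose by 1.77 ± 0.31 in peritumoral hepatocytes (adjusted p = 0.00900) and by 0.80 ± 0.11 at 48 h (adjusted p = 0.00133).

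Of 10 glucocorticoid-responsive genes, 1 rose and 6 fell at 24 h, 1 rose and 5 fell at 48 h and 1 rose in the peritumoral comparison, where 20.5% of all genes fell at 24 h and 23.9% at 48 h. The gene that rose at 48 h was Sgk1 (1.70 ± 0.23, adjusted p = 0.00149). In peritumoral hepatocytes it was Dusp1 (1.62 ± 0.39, adjusted p = 0.0237), with an adjusted p of up to 0.0902 with 1 library left out. The glucocorticoid receptor gene Nr3c1 fell by 0.76 at 24 h (SE 0.12, adjusted p = 0.00328) and by 0.80 at 48 h (SE 0.12, adjusted p = 0.00188), but not without TMM factors. Hsd11b1, which makes active glucocorticoid in hepatocytes, had 225 and 247 CPM at 24 h and 194 and 170 CPM at 48 h, against 1231 and 1104 CPM in controls. Of 10 genes of the NRF2 oxidative stress response, 4 rose and 3 fell at 24 h, 4 rose and 2 fell at 48 h, and 2 rose and 2 fell in the peritumoral comparison, where 21.3%, 25.0% and 19.0% of all genes rose. Hmox1, heme oxygenase 1, rose in all 3: by 2.75 ± 0.23 in peritumoral hepatocytes (adjusted p = 0.00267), 1.76 ± 0.18 at 24 h (adjusted p = 0.000875) and 2.77 ± 0.18 at 48 h (adjusted p = 0.000218). G6pdx rose by 3.25 ± 0.31 at 24 h (adjusted p = 0.000741) and 2.71 ± 0.30 at 48 h (adjusted p = 0.000772). Of its exon bases, 13.6% also lie in Ikbkg on the other strand. Slc7a11 rose by 7.12 ± 0.65 at 48 h (adjusted p = 0.000246), from 1 and 0 counts in control livers. Srxn1, sulfiredoxin, rose by 2.12 ± 0.22 at 24 h (adjusted p = 0.000975) and fell by 1.82 in peritumoral hepatocytes (SE 0.35, adjusted p = 0.0122; 0.0579 without untreated replicate 1).

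Genes of like pattern were ranked by Pearson's r of log2 CPM with each member over the 12 libraries after the same centring. They are descriptions over libraries that share scaling and group differences. Besides Mt2, Mt1 was most like Arhgef1 and Ywhaq (0.95 each), and besides Mt1, Mt2 was most like Tbc1d14 (0.92) and Pitpna (0.91). Slc30a1 was most like Trub1 (0.94), Tbc1d12 (0.92) and Cdc26 (0.92). Slc30a10 had the closest likeness of any transporter, with Mbl1, a mannose-binding lectin of hepatocytes (0.98), Pnkd (0.97) and Tlcd2 (0.97). Slc39a14 was most like Rbx1 (0.90), Dhx30 (0.89) and Ppan (0.87), and Slc39a4 was most like Cdh1, the E-cadherin gene of epithelia (0.91), Upf3b (0.90) and Mical2 (0.89). These 3 lay closer to Slc39a4 among the hepatocyte libraries, peritumoral replicate 2 included: r within hepatocytes and within livers was 0.94 and 0.79 for Cdh1, 0.96 and 0.26 for Upf3b, and 0.95 and 0.65 for Mical2. The other genes named had an r of at least 0.81 within each. Among the members, r of Slc30a10 with Mt1 was -0.74 over the 12 libraries, -0.67 within hepatocytes and -0.86 within livers. The hepatocyte value includes peritumoral replicate 2, with the highest Mt1 (418 CPM) and the lowest Slc30a10 (15.4 CPM), and r without that library was not computed. Slc39a4 had an r with Mt1 of 0.85 within livers and -0.15 within hepatocytes.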

How the data were processed

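Gene counts of 12 libraries were analysed as deposited; STAR, DESeq2 and the build GRCm38 (mm10) are named, without versions, in the submitters' processing notes, while the sources used here name no counter, strand setting or annotation. A deposited RPM table (reads scaled to library size by the authors) held 17311 genes; 100% of its values came back to whole reads within a tolerance of 1e-06. Levels in the text were computed from the counts: RPM by total counts, CPM by TMM factors, and TPM or RPM per kilobase from GENCODE lengths.

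The main test was edgeR 4.0.16 (R 4.3.3): TMM, genes kept by filterByExpr (minimum count 10, total 15), quasi-likelihood F test, Benjamini-Hochberg adjustment over all genes tested, threshold 0.05, prior count 0.125. SE is the absolute log2 fold change divided by the square root of F. Hepatocytes and livers were fitted separately, and all 12 libraries together for the difference of effects. The fit was tested on simulated data. Alternatives were other scalings and filters, DESeq2 1.42.0, limma 3.58.1 on log2(RPM + 0.5) or log2(RPM + 0.1), 1 fit of all libraries, a replicate block and leaving out each library; the older quasi-likelihood estimate and the recovered reads were added after seeing the data.

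The members and lists were chosen with earlier results of these data known. Other genes named are taken from, per list and comparison, the up to 3 called ones with the smallest p, and the 3 most abundant ZnT and ZIP genes. Not all of these are named. Positions come from GENCODE on GRCm38, which matched 97.9% of IDs, and promoters from RefSeq on GRCm38.p6.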

Additional observations from a re-analysis of the deposited data

How the results depend on the processing

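With 2 or 3 libraries a group, calls near the threshold moved with single libraries and with scaling. Under settings other than leaving out a library, 405 values of members kept direction and call, 34 turned sign, 24 came to pass the test and 11 ceased to. Of the 405, 36 came from the recovered reads, the same counts of fewer genes, and 33 from the threshold of 0.01, which keeps every estimate. These say little about how far the results depend on processing. The count of all genes called was 3930 in the peritumoral comparison, with 1308 at an adjusted p under 0.01, 2558 with limma on log2(RPM + 0.5), 5941 in 1 fit of all 12 libraries and 1359 to 3829 without 1 library. It was 5644 at 24 h, with 2862 at 0.01, 3255 in the fit of 12 and 2821 to 4842 without 1 library, and 6598 at 48 h, with 4159 at 0.01 and 4551 to 6174 without 1 library. It was 989 between the times, with 10 at 0.01, 654 without a count filter, 1545 with DESeq2, 1743 with limma on log2(RPM + 0.5), 131 in the fit of 12 and 0 to 1344 without 1 library.

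Members called in the peritumoral comparison were 0, but 2 with DESeq2, 1 in the fit of 12 and 0 to 2 without 1 library. At 24 h they were 3, but 1 at 0.01, 5 without factors and with limma under either pseudocount, 0 in the fit of 12 and 1 to 4 without 1 library. At 48 h they were 3, but 5 without factors and with limma, 1 in the fit of 12 and 2 to 4 without 1 library. Between the times they were 0 with any 1 library left out, and for the differences of effects 0 to 2.

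Under settings other than leaving out a library, signs that turned were of changes near 0 unless scaling moved them. The cause was not tested. Without factors they were, in the peritumoral comparison, Slc30a1 0.011 and Slc30a10 0.12; at 24 h Slc30a1 0.25, Slc30a9 0.40 and Slc39a9 0.19; at 48 h Slc30a1 0.11, Slc30a9 0.39, Slc39a9 0.39 and Slc39a8 0.00017; between the times Slc30a10 0.080, Slc39a4 0.050, Slc39a1 0.14 and Slc39a8 0.030; and, for the peritumoral minus the 48 h effect, Mt2 -0.26 and Slc30a1 -0.098. With limma on log2(RPM + 0.5) or log2(RPM + 0.1) they were Slc30a1 0.0038 in the peritumoral comparison; Slc30a1 0.24 or 0.25, Slc30a9 0.39 and Slc39a9 0.19 at 24 h; Slc30a1 0.11, Slc30a9 0.39 and Slc39a9 0.39 at 48 h; Slc30a10 0.11, Slc39a4 0.035, Slc30a9 7.3e-05 or 0.00012, Slc39a1 0.14 and Slc39a8 0.028 between the times; and Mt1 -0.021, Mt2 -0.44 or -0.45 and Slc30a1 -0.10 or -0.11 against the 48 h effect. With upper-quartile factors they were Slc30a10 0.025 in the peritumoral comparison, Slc30a9 0.036 at 24 h, and Mt1 0.076 and Slc30a1 0.0040 against the 24 h effect. Against that effect they were also Mt1 0.11 and Slc30a1 0.035 with DESeq2 or RLE factors, Mt1 0.082 and Slc30a1 0.013 with a mean of at least 50 counts, and Mt1 0.046 without a filter. Slc30a9 at 24 h was 0.0046 in the fit of 12, and Slc39a9 between the times was -0.036 there, -0.0053 without a filter and -0.015 with only the libraries compared.

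Leaving out 1 library turned the sign of Slc30a10 (-0.53 to 0.57) in the peritumoral comparison; of Slc30a7 (-0.0017 to 0.36) and Slc30a9 (-0.31 to 0.057) at 24 h; of Slc30a5 (-0.18 to 0.34) and Slc39a14 (-0.19 to 0.26) at 48 h; of Slc30a10 (-0.41 to 0.20), Slc30a7 (-0.076 to 0.33), Slc39a4 (-0.40 to 0.070) and Slc39a9 (-0.070 to 0.035) between the times; of Mt1 (-0.50 to 0.47), Mt2 (-1.52 to 0.23) and Slc30a1 (-0.19 to 0.078) against the 24 h effect; and of Mt2 (-0.96 to 0.80) against the 48 h effect.

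Replicate numbers are shared by the groups, but same-numbered libraries did not deviate together, with r of -0.223, 0.165 and 0.105 in hepatocytes and 0.0227 to 0.0266 in livers. With a replicate block the counts of genes called were 2946, 5357, 6352 and 886 and those of members 0, 3, 3 and 0, in the order peritumoral, 24 h, 48 h and 48 h over 24 h. Depth did not limit the members, the lowest of which had 344 counts, but did limit Slc39a2, Slc39a5, Mt3 and Mt4.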

Other observations

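Metallothioneins also bind copper. Of 11 copper-handling genes tested in livers, 0 rose and 6 fell at 24 h, where 21.3% of all genes rose and 20.5% fell. At 48 h 1 rose and 5 fell, where 25.0% of all genes rose and 23.9% fell. The list was not tested as a set. Its medians were -0.50 and -0.40 on the log2 scale, against 0.02 and -0.03 for all genes, and its members did not share 1 direction: Atp7a, a copper exporter, rose at 48 h (1.06 ± 0.23, adjusted p = 0.00952; named after its values were seen), and Atox1, Slc31a2 and Cp had values above 0 at both times that did not pass. Ccs, the chaperone that loads copper into superoxide dismutase 1, had 39.1 and 47.5 CPM at 24 h and 53.4 and 48.1 CPM at 48 h, against 127 and 135 CPM in control livers. Sod1, the enzyme it serves, had 319 and 323 CPM at 24 h and 296 and 261 CPM at 48 h, against 822 and 718 CPM in controls. For both genes all 4 TAA libraries lay below both controls, where 74.1% of all genes at 24 h and 76.4% at 48 h did not overlap with controls, and both fell without TMM factors too. Slc31a1, the copper importer of the plasma membrane, fell by 0.84 at 24 h (SE 0.11, adjusted p = 0.00182) and by 0.98 at 48 h (SE 0.11, adjusted p = 0.000759), but at 48 h it did not pass without factors.

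In peritumoral hepatocytes 0 of 12 copper genes rose and 2 fell, where 19.0% of all genes rose and 10.2% fell, with a median of -0.14, against -0.02 for all genes. Atox1, the chaperone that hands copper to the exporters, had 55.3, 47.3 and 45.8 CPM in peritumoral libraries, against 105, 106 and 91.5 CPM in untreated ones, without overlap, as for 49.5% of all genes. Its change was -1.03 ± 0.15 (adjusted p = 0.00549). Atp7b, the copper exporter into bile, changed by -1.23 ± 0.29 (adjusted p = 0.0226), and that call was lost without untreated replicate 1 (adjusted p of up to 0.102) or 2.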
